A study of Mus musculus with 4 samples.

Results

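The genes described here are 48 genes of DNA replication and S phase, chosen by symbol from a given list, and all 48 were found among the 18560 genes of the deposited table. They were measured by RNA-seq in 4 libraries of mouse spleen CD4+ T cells of strain C57BL/6, activated from the naive state with antibodies against CD3 and CD28 without cytokines that steer them to an effector type (Th0 cells). Wild type replicates were numbered 1 and 6, and replicates 9 and 12 carried the genotype the labels write as Setd2-CD4 cre, called Setd2 knockout below. The sources differ on the time of stimulation: a bare 48 in the titles, 2 days in the design text, but 3 days as the treatment label of each sample. Setd2 encodes the methyltransferase that adds the last methyl group to lysine 36 of histone H3. Cre under Cd4 control acts in thymocytes before the CD4 and CD8 lineages part, so both lineages carry the deletion. Age, sex, whether the controls carried Cre, and whether replicates came from separate animals could not be taken from the labels, and every p-value below rests on a spread between libraries that may be technical.

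A naive T cell rests outside the cell cycle, and activation through its receptor drives it into rapid rounds of division. In G1, the origin recognition complex, CDC6 and CDT1 load the ring of MCM2 to MCM7 onto DNA. At the start of S phase CDC45 and GINS turn the ring into the moving helicase, primase and the polymerases copy both strands on the PCNA clamp, and the enzymes of nucleotide synthesis feed them. Many of these genes are transcribed together in late G1 by E2F factors, which cyclin E and its kinase help to free from RB proteins. Expression of the set is therefore widely read as a sign of cells entering S phase. In a pooled RNA sample, fewer cycling cells and less RNA per cycling cell cannot be told apart.

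Total counts lay between 17284613 and 20418766, and the first principal component, with 56% of the variance, placed wild type replicate 6 and knockout replicate 12 at its ends. Setd2 itself stood at 157 and 174 CPM (read counts scaled to a common library total by TMM) in wild type replicates 1 and 6. It stood at 127 and 113 CPM in knockout replicates 9 and 12 (log2 -0.47, SE 0.21, edgeR adjusted p 0.421). With a trend on gene length removed its log2 value was -0.03. Which exons are deleted could not be taken from the labels, so this gene-level count is no check of them. How complete the deletion was in these cells was not tested.

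All 48 genes passed the filter on low counts, and none of them passed the test of knockout against wild type across all 12816 genes tested. By edgeR's quasi-likelihood test with Benjamini-Hochberg adjustment at 0.05, 0 of the 48 were higher and 0 lower, where 0.0078% of all genes were called higher and 0% lower. DESeq2 called 0 of the 48 as well, beside 0.753% of all genes higher and 0.821% lower. At an unadjusted edgeR p under 0.05, 1 of the 48 was higher (Rpa2) and 0 lower, where 6.23% of all genes were higher and 5.73% lower. The median log2 fold change of the 48 was 0.15 (knockout over wild type), beside 0.00 for all genes tested. A positive value was held by 35 of the 48 (72.9%), beside 49.8% of all genes. With scaling by library size alone 30 of the 48 were positive, and the median was 0.07 for the 48 and -0.08 for all genes tested. Without wild type replicate 6 the median of the 48 was -0.01 and 24 of the 48 were positive. Without wild type replicate 1 the median was 0.32 and 42 were positive.

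The 95% interval of the log2 fold change lay between -1 and 1, which is inside a 2-fold difference either way, for 42 of the 48 genes (87.5%), beside 48.8% of all genes tested and 69.6% of the 7099 genes whose mean CPM lay in the range of the 48. The 6 whose interval went past 1 were Orc1, Orc6, Pold2, Rpa2, Dut and Ung, and no interval went below -1. Values ran from -0.43 (Pole) to 0.76 (Rpa2), and 4 of the 48 (8.33%) were past 0.5 in size, beside 32.1% of all genes and 22.7% of those in the same range of CPM.

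Within wild type the libraries stood apart. Wild type replicate 6 was the lowest of the 4 libraries for 37 of the 48 genes (77.1%), beside 33.1% of all genes tested, and wild type replicate 1 stood above it for 43 of the 48. Knockout replicate 12 was the highest library for 25 of the 48 (52.1%), beside 35.4% of all genes. The 48 genes together made 8403 CPM in wild type replicate 1, 6844 in wild type replicate 6, 7916 in knockout replicate 9 and 8741 in knockout replicate 12, so both knockout libraries lay above wild type replicate 6 but on either side of wild type replicate 1. Differences on the log2 CPM scale were taken with their sign, so a median is a net shift and not a typical distance. The median over the 48 genes was 0.29 for wild type replicate 1 minus replicate 6. For knockout replicate 12 minus replicate 9 it was 0.13, with 36 of the 48 positive. For the knockout mean minus the wild type mean it was 0.15. For 33 of the 48 genes the wild type libraries lay further apart from each other than the genotype means did, beside 47.1% of all genes. For 12 of the 48 the knockout libraries were both higher than either wild type library (25%), beside 25.4% of all genes, and for 3 of the 48 both were lower (6.25%), beside 24.3% of all genes.

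**Figure D1:**
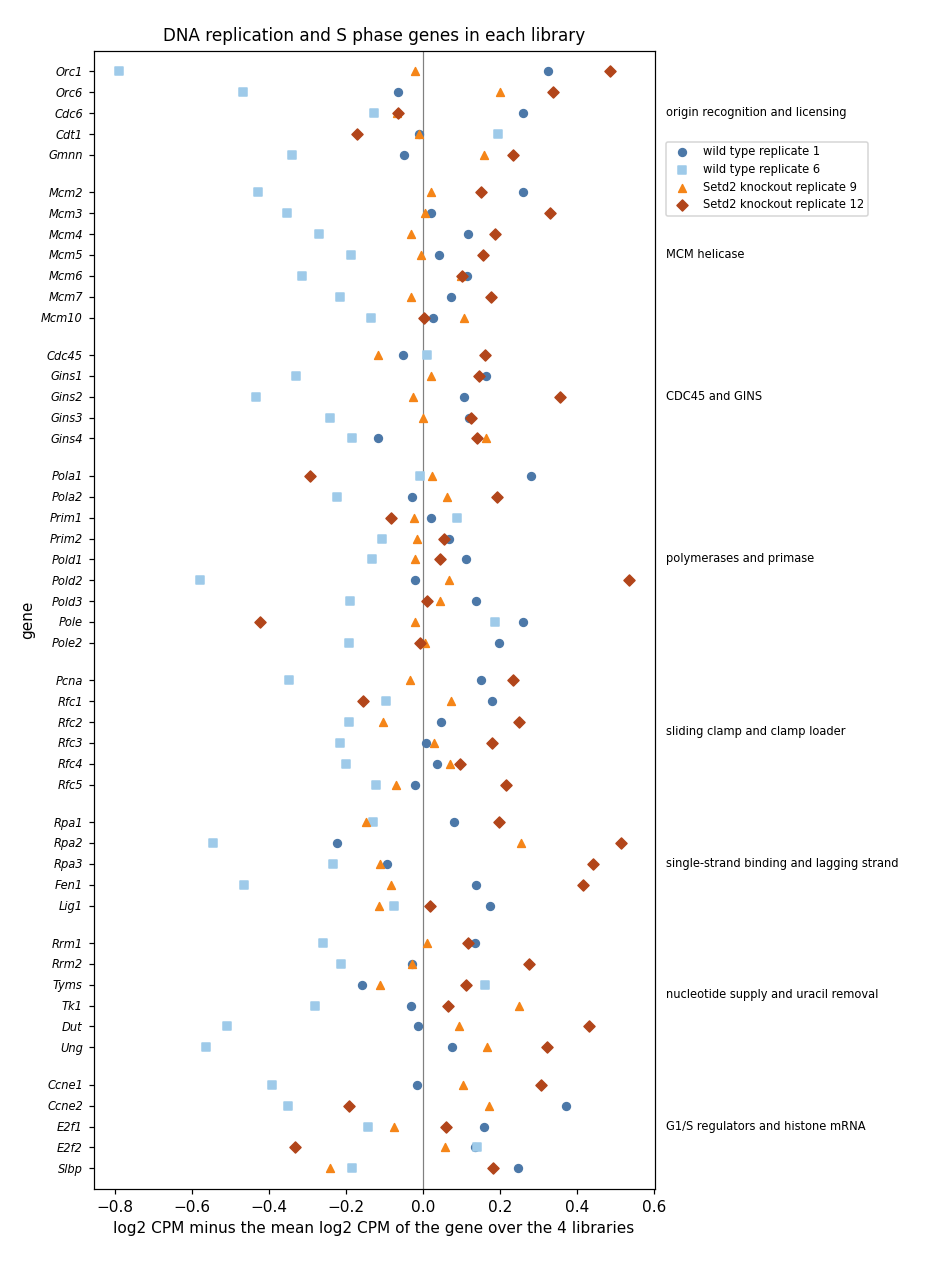
log2 CPM of each of the 48 genes in each library, as the distance from the mean of that gene over the 4 libraries (horizontal axis), with genes grouped by role (vertical axis). Blue circles and light squares are wild type replicates 1 and 6, orange triangles and red diamonds knockout replicates 9 and 12, and the light squares are furthest left for 37 of the 48 genes.

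As levels per gene length, the set was abundant in every library. Genes were set against each other on the FPKM scale, which accounts for gene length. The median of the mean FPKM was 51.2 over the 48 genes and 9.81 over all genes tested. The highest was Pcna, the sliding clamp that holds polymerases on DNA (mean FPKM 404), above all but 1.24% of the genes tested. Below it came Mcm6 (189.8), the ribonucleotide reductase subunit gene Rrm2 (179.5) and Mcm7 (173). The lowest were Gins3 (8.27), Orc1 (12.3) and the cyclin E2 gene Ccne2 (12.7), and 46.1% of the genes tested had a lower level than Gins3. Neighbours in this order mostly overlapped in their ranges over the libraries: Mcm6 stood at 205 and 160 FPKM in wild type and 202 and 193 FPKM in knockout, and Rrm2 at 176 and 163 FPKM against 175 and 205 FPKM. Pcna did not overlap with the next gene, with its lowest library at 333 FPKM.

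**Figure D2:**
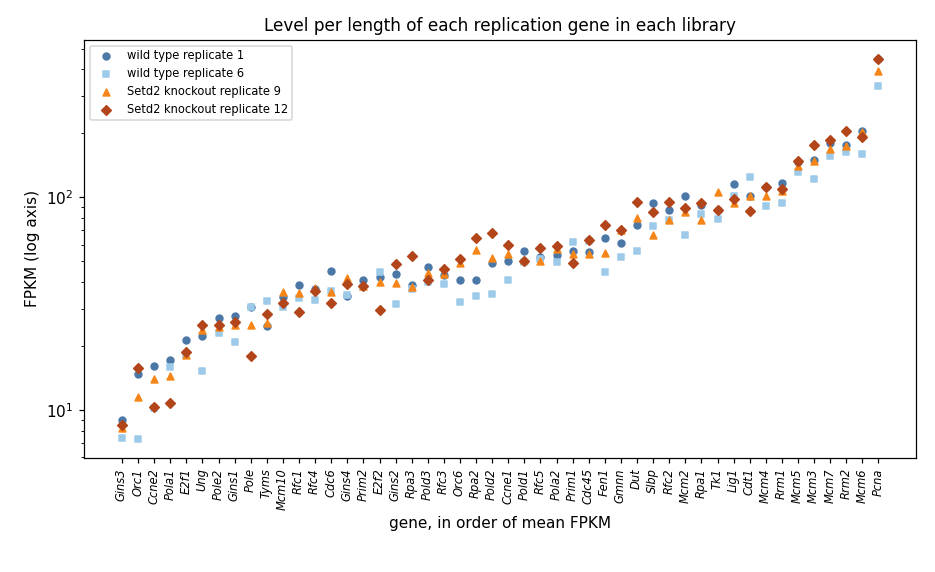
FPKM (vertical log axis) of each of the 48 genes in the 4 libraries, in order of the mean over the libraries. Gins3 is lowest at a mean of 8.27 FPKM and Pcna highest at 404 FPKM, and for most genes the 4 markers lie close together.

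Promoter sequence was looked at because many of these genes are known as E2F targets. Promoter windows of 300 bases (250 before and 50 from the RefSeq start on, build GRCm38.p6) were matched for 39 of the 48 genes, 45 windows in all. The letters searched were TTTGGCGC, TTTCCCGC, TTTGCCGC and TTTCGCGC on both strands, the usual core of an E2F site, and matches to different letters could overlap. They were present in 15 of the 39 genes (38.5%), beside 4.69% of the genes tested with a window, 2.26% of all 32851 windows, and 1 of 26 matched mitosis genes. By role, the letters were in 4 of 6 matched MCM genes, 3 of 4 genes of origin recognition and licensing, 4 of 7 polymerase and primase genes, and 0 of 6 genes of nucleotide supply. CCAAT, bound by NF-Y, was present in 23 of the 39 (59.0%), beside 43.4% of the genes tested. TTTGAA, the CHR element of genes that peak in G2 and mitosis, was in 6 of the 39 (15.4%), beside 14.8% of the genes tested and 69.2% of the matched mitosis genes. The median log2 fold change was 0.04 over the 15 genes with the E2F letters and 0.17 over the 24 without. Over all genes tested with a window it was 0.01 for the 480 with the letters and 0.00 for the 9764 without. These medians took no account of gene length, and their difference was not tested. A match is a description of letters and not a bound site, and no match says only that these letters are not in this window.

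The stretches before the start of 4 genes are shown, leaving out bases that an exon of the GENCODE annotation covers. By RefSeq the genes Mcm5 and Pola1 begin inside their stretches, at 75109468 and 93632387, so part of each stretch lies within the gene. Mcm6 and Mcm5 are the 2 of the 6 matched MCM genes with overlapping matches, Pola1 shows a lone match on the other strand, and Rpa2 is the gene with the smallest p. They lie at chr1:128359706-128359955 (minus strand), chr8:75109259-75109508 (plus strand), chrX:93632156-93632405 (minus strand) and chr4:132768110-132768331 (plus strand). All are written 5′ to 3′ along the gene, with the E2F letters of either strand in capitals.

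Mcm6: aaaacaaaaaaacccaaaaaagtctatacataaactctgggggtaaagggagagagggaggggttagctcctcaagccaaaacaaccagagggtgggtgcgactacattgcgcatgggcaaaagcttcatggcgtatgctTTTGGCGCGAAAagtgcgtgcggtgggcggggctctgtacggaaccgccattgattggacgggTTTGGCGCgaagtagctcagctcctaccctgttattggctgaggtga

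Mcm5: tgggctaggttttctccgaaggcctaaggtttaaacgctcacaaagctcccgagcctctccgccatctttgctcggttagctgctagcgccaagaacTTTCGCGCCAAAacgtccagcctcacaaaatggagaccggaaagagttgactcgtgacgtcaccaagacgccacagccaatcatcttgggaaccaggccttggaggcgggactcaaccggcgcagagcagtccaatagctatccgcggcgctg

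Pola1: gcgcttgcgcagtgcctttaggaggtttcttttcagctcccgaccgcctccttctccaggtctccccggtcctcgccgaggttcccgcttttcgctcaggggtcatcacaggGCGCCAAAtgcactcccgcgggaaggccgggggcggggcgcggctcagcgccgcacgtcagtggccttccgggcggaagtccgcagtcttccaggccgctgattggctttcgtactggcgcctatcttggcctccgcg

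Rpa2: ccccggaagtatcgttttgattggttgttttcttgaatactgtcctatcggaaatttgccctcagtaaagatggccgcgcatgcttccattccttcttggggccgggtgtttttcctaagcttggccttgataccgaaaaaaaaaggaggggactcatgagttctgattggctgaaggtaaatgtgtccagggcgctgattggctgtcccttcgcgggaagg

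Mcm6 held 3 matches, at 110, 106 and 47 bases before the start, the first and second overlapping on opposite strands. In Mcm5 2 matches overlapped in the same way, at 153 and 149 bases before the start. Pola1 had a match at 138 bases before the start used here, inside the RefSeq span of the gene, and Rpa2 had none in its window.

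Below, values are given for wild type replicates 1 and 6 first and for knockout replicates 9 and 12 after them. Among the 5 genes that recognise and license origins, Orc6, a subunit of the origin recognition complex, had the smallest p. It stood at 66.6 and 50.4 CPM (wild type) against 80.1 and 88.0 CPM (knockout), with no overlap between the groups. Exons of Vps35 overlap those of Orc6 on the opposite strand. Its log2 fold change was 0.52 (SE 0.23) with an edgeR adjusted p of 0.417. Orc1, the ATPase subunit of the same complex, was the most spread gene of the set, at 46.1 and 21.3 against 36.3 and 51.5 CPM (log2 0.38, SE 0.38). The loading factor Cdt1, the most abundant of the group per length, stood at 225 and 259 against 225 and 201 CPM (-0.18, SE 0.21). Gmnn encodes geminin, the inhibitor that keeps CDT1 from loading helicases again, and stood at 58.4 and 47.7 against 67.4 and 71.1 CPM (0.38, SE 0.21). Cdc6, the loading ATPase, stood at 109.8 CPM in wild type replicate 1 and between 84.0 and 87.7 CPM in the other libraries. With the length trend removed Gmnn was at 0.08.

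All 7 genes of the MCM helicase group had a positive log2 fold change, from 0.11 to 0.33, beside 49.8% of all genes tested. In each of the 7 wild type replicate 6 was the lowest library, beside 33.1% of all genes. Without that library Mcm2, Mcm4 and Mcm6 had values of -0.18, -0.04 and -0.02. Mcm3 had the smallest p, at 435 and 336 CPM (wild type) against 431 and 539 CPM (knockout) (log2 0.33, SE 0.23, edgeR adjusted p 0.531). Mcm6 stood at 620.4 and 461 against 614 and 615 CPM (0.18, SE 0.22), so both knockout libraries were just below wild type replicate 1. Mcm2 differed most between the wild type libraries, at 345 and 214 CPM, with 292 and 319.7 CPM in knockout libraries. In none of the 7 did the groups separate, and for each of the 7 the wild type gap was larger than the gap between genotype means. The subunits kept one order at the ends: Mcm2 was lowest and Mcm6 highest per length in each of the 4 libraries, with a ratio between 2.01 and 2.41. Mcm10, which joins the helicase at firing and is not part of the ring, was lower than the ring genes, at a mean of 33.1 FPKM against 85.7 to 189.8 FPKM.

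The 5 genes of CDC45 and GINS, the helicase partners, also had positive values in the main fit, from 0.05 to 0.32. Cdc45 was at -0.03 with scaling by library size, where the median of all genes was -0.08. With the length trend removed Cdc45 and Gins1 were at -0.08 and -0.14, and Gins2, Gins3 and Gins4 at 0.01, 0.04 and 0.07. Wild type replicate 6 was the lowest library for 4 of the 5, beside 33.1% of all genes. With a library left out Cdc45, Gins1 and Gins3 went as low as -0.10, -0.08 and -0.06. Gins4 stood at 46.6 and 44.5 against 56.6 and 55.7 CPM, the only gene of the 5 whose groups did not overlap (log2 0.30, SE 0.20, edgeR adjusted p 0.513). Gins2 had the largest value, at 44.3 and 30.5 against 40.4 and 52.7 CPM (0.32, SE 0.26). Cdc45, the most abundant of them per length, stood at 113 and 118 against 108 and 131 CPM (0.05, SE 0.21). Although the GINS proteins form a complex with equal parts of each, their transcripts were uneven, with Gins3 the lowest in each library and a ratio of highest to lowest between 4.69 and 5.73.

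The 9 polymerase and primase genes lay on both sides of 0, with a median of 0.01, 5 positive and 4 negative. With scaling by library size Prim2, Pold1 and Pold3 were negative (-0.03 to -0.06), where the median of all genes was -0.08. Pold2, an accessory subunit of the lagging-strand polymerase delta, had the largest value, at 79.0 and 53.6 against 83.9 and 116 CPM (log2 0.59, SE 0.27, edgeR adjusted p 0.423). Both knockout libraries were above both wild type libraries, but knockout replicate 9 exceeded wild type replicate 1 by little. Without wild type replicate 6 the log2 value of Pold2 was 0.33 and without knockout replicate 12 it was 0.34. Pole, the catalytic subunit of the leading-strand polymerase epsilon, had the lowest value of the 48, at 219.8 and 209 against 181 and 137 CPM (-0.43, SE 0.23, edgeR adjusted p 0.447). Pola1, the catalytic subunit of the polymerase that extends primers, stood at 91.8 and 75.3 against 76.9 and 61.7 CPM (-0.27, SE 0.23). Pola1 and Pole are also the longest of the 48 genes, at 5248 and 7230 bases of effective length. The primase subunit gene Prim1 stood at 85.3 and 89.4 against 82.8 and 79.4 CPM, lower in both knockout libraries by less than the SE (-0.11, SE 0.20). Pold1, Pold3, Prim2 and Pole2 lay between -0.02 and 0.04, and Pola2 at 0.25.

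Of the sliding clamp and its loader, Pcna stood at 556 and 394 CPM (wild type) against 489 and 589 CPM (knockout) (log2 0.18, SE 0.24, edgeR adjusted p 0.745). Knockout replicate 9 lay between the wild type libraries, and knockout replicate 12 just above both. The loader genes Rfc2 to Rfc5 lay between 0.15 and 0.21, and Rfc1, the large subunit, at -0.09. Rfc3 had the largest value of them, at 51.9 and 44.5 against 52.7 and 58.5 CPM (0.21, SE 0.21, edgeR adjusted p 0.666).

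Rpa2 was the 1 gene of the 48 with an unadjusted p under 0.05. It encodes the middle subunit of replication protein A, which coats single-stranded DNA at forks and is phosphorylated under replication stress. Rpa2 (gene 19891, GRCm38.p6 chromosome 4, 132768360 to 132778746) stood at 72.6 and 58.1 CPM (wild type) against 101 and 121 CPM (knockout), 65.3 ± 10.3 against 111 ± 14.4 CPM (SD, n = 2 per group). The groups did not overlap. The difference was 1.70-fold (log2 0.76, SE 0.23, 95% interval 0.23 to 1.29), with an edgeR p of 0.0106 before and 0.386 after adjustment over all genes, and a DESeq2 adjusted p of 0.123. Without wild type replicate 6 its log2 value was 0.61 with an edgeR p of 0.0934, and over the other 12 alternatives the value ran from 0.60 to 0.94 with p under 0.05. The other subunits of the same complex were lower in value, Rpa1 at 281 and 243 against 240.1 and 305 CPM (0.05, SE 0.22) and Rpa3 at 23.7 and 21.5 against 23.4 and 34.3 CPM (0.35, SE 0.25). The difference between Rpa2 and its partners was not tested. Of the lagging-strand enzymes, the flap nuclease gene Fen1 stood at 141 and 92.9 against 121 and 171 CPM (0.31, SE 0.28), and the ligase gene Lig1, the most abundant of the group per length, at 359 and 302 against 294 and 322 CPM (-0.10, SE 0.21).

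In the group of nucleotide supply and uracil removal, 5 of 6 genes had positive values and none passed the test. Dut, the enzyme that removes dUTP so that uracil stays out of DNA, stood at 172 and 122 against 185 and 234 CPM (log2 0.51, SE 0.25, edgeR adjusted p 0.430). Ung, the glycosylase that cuts uracil out of DNA, stood at 42.6 and 27.4 against 45.4 and 50.6 CPM (0.45, SE 0.26), and the thymidine kinase gene Tk1 at 117 and 98.5 against 142 and 125 CPM (0.31, SE 0.22). For these 3 of the 6 genes the groups did not overlap, with knockout higher, as for 25.4% of all genes tested. Wild type replicate 6 was the lowest library for each of them, beside 33.1% of all genes. Without that library Ung was at 0.17 and Dut at 0.28, without wild type replicate 1 they were at 0.82 and 0.79, and Tk1 was at 0.08 with the length trend removed. The subunits of ribonucleotide reductase, which makes deoxynucleotides, overlapped between groups, Rrm2 at 383 and 337 against 383 and 473 CPM (0.25, SE 0.22) and Rrm1 at 471 and 358 against 432 and 465 CPM (0.11, SE 0.22). Thymidylate synthase (Tyms), 1 of the 4 genes that were highest in wild type replicate 6, stood at 95.4 and 119 against 98.5 and 115 CPM (-0.01, SE 0.22).

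Regulators of the G1 to S step were mostly at or below 0. Ccne1, the gene of cyclin E1, had the largest value, at 98.5 and 75.8 against 107 and 123 CPM (log2 0.40, SE 0.23, edgeR adjusted p 0.464), with both knockout libraries higher. Ccne2 stood at 44.0 and 26.7 against 38.3 and 29.8 CPM (-0.05, SE 0.29), inside the range of the wild type libraries. The activating factors E2f1 (58.7 and 47.6 against 49.9 and 54.8 CPM) and E2f2 (196 and 197 against 186 and 142 CPM) had values of -0.02 (SE 0.22) and -0.26 (SE 0.22). Slbp, which binds the stem-loop of histone mRNA and is the most abundant of the group per length, stood at 178 and 132 against 127 and 170.1 CPM (-0.06, SE 0.25).

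**Figure D3:**
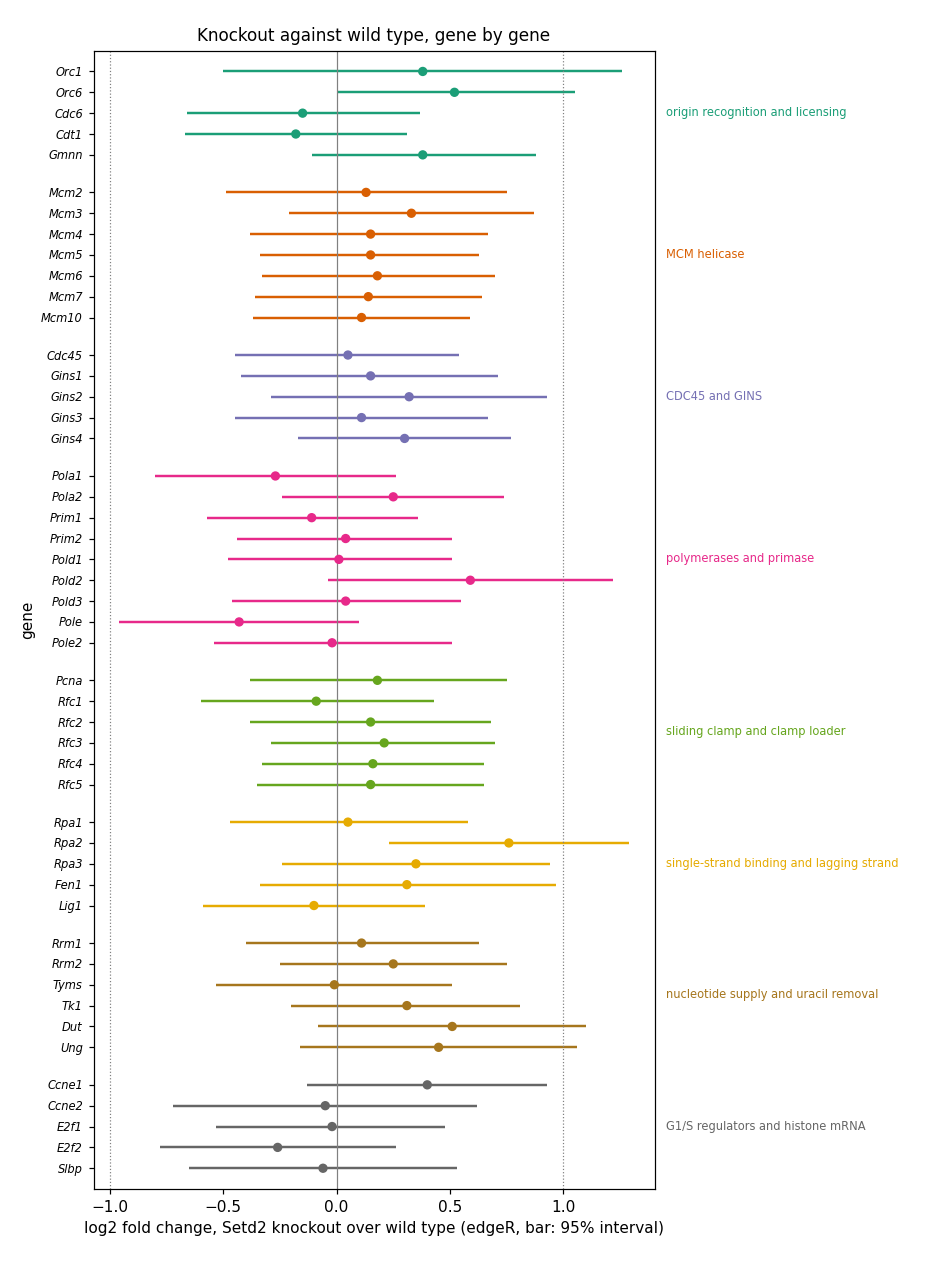
log2 fold change of each of the 48 genes, knockout over wild type (horizontal axis), with the 95% interval from edgeR as a bar and colours for roles. Dotted lines mark a 2-fold difference; 42 of the 48 bars stay between them, and the bar of Rpa2 is the only one that lies wholly above 0 at 0.23 to 1.29.

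Gene length moved with the fold change. Over the 48 genes Spearman's rho between effective length and log2 fold change was -0.52, and over all genes tested it was -0.39. Both are descriptions across genes that share the same 4 libraries, and genes are not independent replicates. The 9 genes of the set under 1500 bases had a median log2 value of 0.30, beside 0.32 for all 2272 genes of that length. The 24 between 1500 and 3000 bases had 0.15 beside 0.08, and the 15 over 3000 bases 0.04 beside -0.19. After each library's trend on length was taken out, the median of the 48 was 0.07 and 28 of the 48 were positive. Pole then had a log2 value of -0.08, Pola1 -0.04, Rpa3 -0.04 and Pcna -0.07, while Rpa2 had 0.60. The MCM group kept 7 of 7 positive values (median 0.20), and the clamp and loader group had 1 of 6 positive (median -0.06). Whether length is a cause of these differences was not tested.

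**Figure D4:**
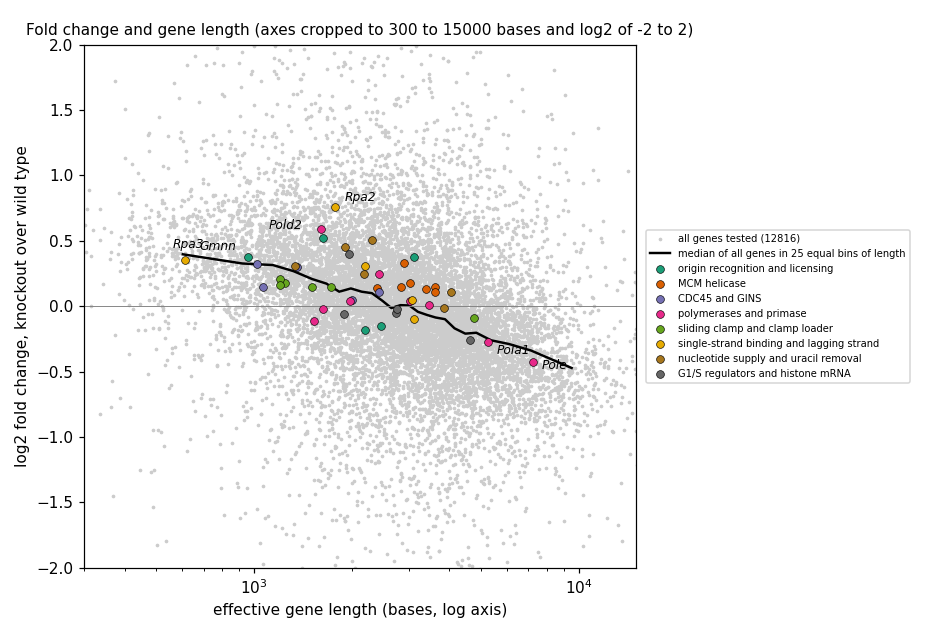
log2 fold change, knockout over wild type (vertical axis), against effective gene length (horizontal log axis) for the 12816 genes tested (grey) and the 48 replication genes (coloured by role), with the running median of all genes as a black line. The line falls from left to right, and Pole and Pola1 lie at the long end of the set at -0.43 and -0.27.

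Other genes of the same pathway were read from lists of 103 genes in 7 groups, all of them tested, with 0 called higher and 0 lower by edgeR. Over all genes tested 0.0078% were called higher and 0% lower. At an unadjusted edgeR p under 0.05, 6.23% of all genes were higher and 5.73% lower. Of 15 further origin factors 0 had an unadjusted p under 0.05 (median log2 -0.05), with Donson at 93.2 and 91.0 against 72.9 and 65.2 CPM (-0.42, SE 0.20) and Ticrr at 113 and 114 against 105 and 66.0 CPM (-0.42, SE 0.26), both factors that help helicases fire. Ticrr was at -0.12 without knockout replicate 12, at -0.80 without knockout replicate 9 and at -0.08 with the length trend removed. Of 20 further fork proteins 1 was higher at that p (median 0.04), Rnaseh2c, a subunit of the nuclease that removes RNA from DNA, at 26.8 and 18.2 against 28.8 and 42.8 CPM (0.67, SE 0.29). Its catalytic partner Rnaseh2a stood at 42.8 and 44.0 against 54.8 and 67.3 CPM (0.49, SE 0.22). With the length trend removed Rnaseh2c was at 0.29 and Rnaseh2a at 0.30. Of 10 genes of replication-coupled chromatin 0 had such a p (median 0.00). The histone chaperone gene Chaf1b stood at 61.8 and 52.1 against 70.7 and 90.3 CPM (0.50, SE 0.23). Nasp, also a histone chaperone gene, stood at 165 and 99.9 against 178 and 217 CPM (0.57, SE 0.28). With a library left out Chaf1b ran from 0.31 to 0.66 and Nasp from 0.26 to 0.99. Of 9 checkpoint genes 0 had such a p (median -0.12). The kinase gene Atr stood at 56.6 and 49.3 against 48.3 and 34.7 CPM (-0.35, SE 0.24). The kinase gene Chek1 stood at 60.3 and 54.3 against 51.9 and 40.6 CPM (-0.31, SE 0.22). With a library left out Atr ran from -0.62 to -0.13 and Chek1 from -0.51 to -0.15. Atr was at -0.08 with the length trend removed.

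Nucleotide synthesis was the list with the highest median, 0.39, and 19 of its 22 genes were positive, beside 49.8% of all genes. Wild type replicate 6 was the lowest library for 18 of the 22, beside 33.1% of all genes. At an unadjusted edgeR p under 0.05, 2 were higher and 1 lower, beside 6.23% and 5.73% of all genes tested. Atic, an enzyme of purine synthesis, stood at 175 and 110.2 against 219.8 and 267 CPM (log2 0.77, SE 0.27), and the nucleoside diphosphate kinase gene Nme2 at 235 and 172 against 271 and 348 CPM (0.61, SE 0.25). With wild type replicate 6 left out Atic was at 0.48 and Nme2 at 0.40, with replicate 1 left out Atic was at 1.16, and Nme2 was at 0.26 with the length trend removed. The lower gene was Samhd1, which breaks down deoxynucleotides and limits their pool, at 1530.3 and 2232 CPM (wild type) against 972 and 889 CPM (knockout). Its log2 value was -1.02 (SE 0.24) with an edgeR adjusted p of 0.312 and a DESeq2 adjusted p of 0.0101. Both knockout libraries were below both wild type libraries, and with 1 wild type library left out the log2 value was -0.72 (without replicate 6) or -1.25 (without replicate 1, edgeR adjusted p 0.0366).

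The 20 genes of G1 to S control had a median log2 fold change of -0.05, with 9 positive and 11 negative. At an unadjusted edgeR p under 0.05, 2 were lower and 0 higher, beside 5.73% and 6.23% of all genes tested. They were the pocket protein genes Rb1, at 107 and 140.0 against 86.2 and 53.7 CPM (log2 -0.82, SE 0.28, edgeR adjusted p 0.413), and Rbl1, at 174 and 198 against 145 and 79.1 CPM (-0.73, SE 0.30, edgeR adjusted p 0.414). With a library left out, Rb1 ran from -0.52 (without knockout replicate 12) to -1.21 (without knockout replicate 9), and Rbl1 from -0.37 to -1.24 without the same libraries. Pocket proteins hold E2F factors in check. For both, knockout replicate 12 was the lowest library and wild type replicate 6 the highest. Of 7 CDK inhibitor genes 1 was lower at that p, with a list median of -0.03, 2 positive and 5 negative. It was Cdkn2c (p18), at 35.4 and 44.9 against 27.6 and 24.9 CPM (-0.61, SE 0.23). Cdkn1b (p27) stood at 96.2 and 128 against 96.7 and 59.6 CPM (-0.52, SE 0.29). Cdkn1a, the most counted of the 7, went the other way, at 103 and 159 against 129 and 259 CPM (0.56, SE 0.37). Cdkn1c, Cdkn2a and Cdkn2b stood at 0.232 to 1.76 CPM. Cdkn1b was at -0.22 without knockout replicate 12 and at -0.92 without knockout replicate 9.

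The 32 genes of mitosis and G2/M had a median log2 fold change of 0.02, with 17 positive and 15 negative. At an unadjusted edgeR p under 0.05, 1 was higher and 1 lower, beside 6.23% and 5.73% of all genes tested. The higher was the cyclin B1 gene Ccnb1 at 117 and 83.0 against 136 and 164 CPM (0.59, SE 0.25). The lower was the mitotic transcription factor gene Foxm1 at 219 and 229 against 172 and 137 CPM (-0.53, SE 0.22). Neither passed after adjustment, with edgeR adjusted p of 0.416 and 0.413. Wild type replicate 6 was the lowest library for 12 of these 32 genes (37.5%), against 37 of the 48 replication genes. The median signed difference, wild type replicate 1 minus replicate 6, was 0.08 for mitosis genes and 0.29 for replication genes. It was positive for 20 of the 32 mitosis genes, so opposite signs partly cancel. These values were set side by side without a test.

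**Figure D5:**
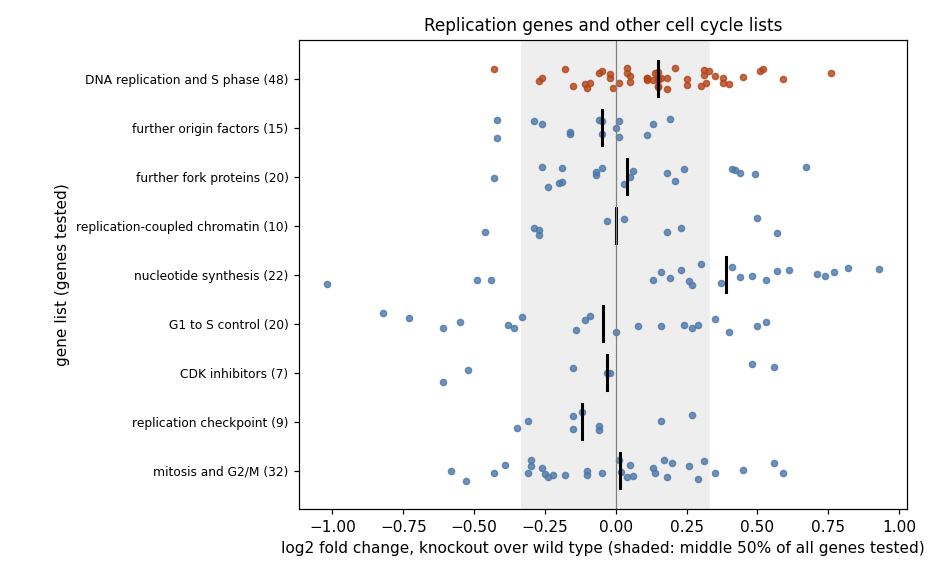
log2 fold change of each gene, knockout over wild type (horizontal axis), for the 48 replication genes (red) and 8 other lists (blue), with the list's median as a black bar and the middle 50% of all genes tested shaded. The list of nucleotide synthesis has its median furthest right, at 0.39, and the point furthest left, at -1.02, is Samhd1.

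The CD4 T cell markers measured (6 of 9) summed to 2272 and 2543 against 2001 and 1861 CPM, lower in both knockout libraries, with the highest sum in wild type replicate 6 and the lowest in knockout replicate 12, the reverse of the replication genes. B cell markers (6 of 6 measured, none at 0) summed to 274 and 191 against 202 and 355 CPM, highest in knockout replicate 12 and lowest in wild type replicate 6, the same ends as the replication genes. CD8 and gamma-delta T cell markers (3 of 5 measured, led by Cd8b1) summed to 261 and 331 against 433 and 324 CPM. NK cell markers, led by Klrk1, summed to at most 67.6 CPM, myeloid markers, led by Cd68, to at most 25.8 CPM and erythroid markers, led by Hbb-bs, to at most 20.2 CPM. The part of other cells in the values of the replication genes was not tested. Exons of 16 of the 48 genes overlap an exon of another annotated gene, mostly on the opposite strand, and Pcna and Tyms have named pseudogene copies with no line in the table. The counting is not stated to use strand, so reads of such partners cannot be told apart.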

How the data were processed

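Gene-level RNA-seq values of 4 libraries were used, 2 per genotype, grouped by sample title. The authors deposited an expected count per gene and sample (RSEM with Bowtie2 and the builds GRCm38.p6 and mm10, per the submitters' processing notes, with no version named), which shares ambiguous reads between genes. The second deposited value per sample was taken as FPKM made by the authors, since dividing counts by it returned the annotated length (median ratio 0.997 over 651 genes with a lone transcript). The authors' 4 columns of group means were left out. RefSeq matched 99.3% of gene IDs.

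Counts were rounded, filtered with filterByExpr (minimum count 10, 12816 genes left), scaled by TMM and tested with edgeR 4.0.16 (quasi-likelihood, robust, two-sided, Benjamini-Hochberg over all genes, threshold 0.05; R 4.3.3). SE came from the F statistic and 95% intervals from its degrees of freedom. Within-group differences used log2(CPM + 0.5) and kept their sign in medians. Alternatives were other scalings and filters, DESeq2 1.42.0, limma 3.58.1 (voom, and log2(FPKM + 1)), removal of a length trend, and each library left out. On simulated data for this comparison (12816 genes) edgeR recovered 36% of 2-fold and 94% of 4-fold changes, with 23 unchanged genes among 153 calls. DESeq2 recovered 43% and 97% on the same data, with 32 unchanged genes among 172 calls. The changes were planted only in better counted genes. Each gene was drawn independently, with no difference shared across a library, so these shares may not hold for the real libraries. Libraries differed by more than counting noise in every pair (chi-square per degree of freedom 30.4 to 161.8). The 48 genes and the other lists were chosen with earlier results of these data known. Given in full are, per role, the gene of smallest p, of largest fold and of highest FPKM, and any with p under 0.05; per further list, the 2 of smallest p and others with p under 0.05, up to 4. Further values of the 48 were added after they were seen.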

Additional observations from a re-analysis of the deposited data

How the results depend on the processing

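Of the 48 genes 0 were called in either direction under all 13 alternatives. Over all genes, 1 was called higher and 0 lower, with 48 and 33 without a filter on low counts, 89 and 97 in DESeq2, and 0 to 113 higher and 0 to 81 lower with a library left out. The median of the 48 genes (0.15) ran from -0.01 to 0.32 with a library left out, and the number positive from 24 to 42. Under the other 9 settings that median lay between 0.07 and 0.16. Library size alone moved the median of all genes to -0.08, and limma on FPKM moved it to -0.05. Of 594 values of 66 genes under these settings 571 kept their direction. Those that reversed were, by library size, Cdc45 -0.03, Prim2 -0.04, Pold1 -0.06, Pold3 -0.03, Rpa1 -0.03; by limma on FPKM, Cdc45 -0.00, Prim2 -0.04, Pold1 -0.06, Pold3 -0.03, Rpa1 -0.03; by upper-quartile factors, Pold1 -0.00; without a filter, Tyms 0.00; and with the length trend removed, Cdc45 -0.08, Gins1 -0.14, Prim2 -0.09, Pcna -0.07, Rfc1 0.12, Rfc2 -0.06, Rfc3 -0.06, Rfc4 -0.10, Rfc5 -0.02, Rpa3 -0.04, Tyms 0.12. The cause was not tested. With a library left out 22 of the 48 genes took both signs, as ranges Orc1 -0.07 to 1.05, Cdc6 -0.33 to 0.07, Mcm2 -0.18 to 0.53, Mcm4 -0.04 to 0.37, Mcm6 -0.02 to 0.42, Cdc45 -0.10 to 0.17, Gins1 -0.08 to 0.42, Gins3 -0.06 to 0.31, Prim2 -0.05 to 0.14, Pold1 -0.11 to 0.15, Pold3 -0.11 to 0.23, Pole2 -0.20 to 0.20, Pcna -0.05 to 0.46, Rfc1 -0.22 to 0.07, Rfc2 -0.04 to 0.30, Rpa1 -0.13 to 0.21, Lig1 -0.22 to 0.04, Rrm1 -0.07 to 0.34, Tyms -0.15 to 0.16, Ccne2 -0.37 to 0.36, E2f1 -0.17 to 0.15, Slbp -0.29 to 0.18, and Rfc5 ran from -0.00 to 0.28. Ranges that kept their sign but moved by over 1.5 times included Mcm3 0.15 to 0.54, Gins2 0.07 to 0.62, Fen1 0.04 to 0.66, Rpa3 0.05 to 0.59, Rrm2 0.09 to 0.38, Ccne1 0.22 to 0.61 and Pole -0.65 to -0.25. In such fits the lone library is assumed to vary like the other group. No paired analysis was possible because the groups share no replicate number. Depth was not varied. The least counted of the 48, Gins3, stood at 16.9 to 21.8 CPM.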
